A study of Homo sapiens with 3 samples.

Results

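The zinc finger genes described here lie in 3 stretches of the long arm of chromosome 19, at 19q13.11, 19q13.12 and 19q13.31. They were chosen by gene symbol from a list of 50 names, of which 48 had an entry under that symbol in the deposited table. ZNF112 was found under its older symbol ZFP112, and ZNF229 was not analysed here, which leaves 49 genes of the 19049 with a usable symbol. The 49 genes are 4 of 19q13.11, 26 of 19q13.12 and 19 of 19q13.31.

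The RNA-seq data come from MDA-MB-231, an established cell line grown from a human basal-like breast carcinoma with mesenchymal traits. All cells compared carried a short hairpin RNA against KAP1, and 1 of 3 forms of the protein was then put back. S473A cells re-expressed KAP1 with alanine in place of serine at the studied position, which cannot be phosphorylated there. S473D cells re-expressed KAP1 with aspartate at that position, a residue often used to imitate phosphorylated serine, and wt cells re-expressed wild-type KAP1. Each form gave 1 library, so there is no replicate error and no test of a difference, and every difference below describes a pair of libraries. The labels do not say whether the cells of each form were a clone or a pool, or whether the 3 cultures were handled together.

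KAP1, encoded by TRIM28, is a corepressor with no DNA-binding domain of its own. KRAB zinc finger proteins bind DNA through arrays of C2H2 zinc fingers and bring KAP1 to it through their KRAB domain, and KAP1 then recruits a histone H3 lysine 9 methyltransferase, heterochromatin protein and a histone deacetylase complex. The genes of this family grew by tandem duplication into clusters, many of them on chromosome 19, and their own 3′ exons are known sites of KAP1 binding. Most of the genes described here encode such proteins, while ZNF260 and ZNF345 encode zinc finger proteins known to lack a KRAB domain.

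The depth estimated from the steps between low values was 29500000 reads for S473A, 24000000 for S473D and 25800000 for wt. Levels are given in RPKM, which scales reads by the length of the gene model and the depth of the library and allows levels of different genes to be compared. Markers of the line were checked in each library, with the mesenchymal gene VIM at 740 RPKM in S473A, 673 in S473D and 738 in wt, and with the epithelial cadherin gene CDH1 at no more than 0.225 RPKM. TRIM28 stood at 32.3 RPKM in S473A, 25.6 in S473D and 28.7 in wt, and these values do not separate the cell's own transcript from the re-expressed one.

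The promoters of 4 genes are printed because they bracket the result that follows: ZNF222 and ZNF230 had the highest differences between S473D and wt among the genes above a mean of 0.5 RPKM, and ZNF850 and ZNF225 the lowest, leaving aside genes without a promoter entry. ZNF230 passed that mean only through its level in S473D. Each promoter runs 5′ to 3′ from 250 bases before the transcription start to 50 after it and comes from RefSeq. Capitals mark the letters TGGGAANTGNAGT, where N is any base, and the ETS-family core CCGGAAG, both on either strand.
ZNF222 (GRCh38.p14, chr19:44025129-44025428, plus strand): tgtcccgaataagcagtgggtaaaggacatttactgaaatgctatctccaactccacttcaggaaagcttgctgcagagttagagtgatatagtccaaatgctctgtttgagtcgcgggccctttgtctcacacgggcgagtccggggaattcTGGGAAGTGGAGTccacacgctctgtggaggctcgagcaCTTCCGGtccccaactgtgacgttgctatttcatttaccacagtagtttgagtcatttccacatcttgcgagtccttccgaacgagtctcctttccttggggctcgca
ZNF230 (GRCh38.p14, chr19:44002707-44003006, plus strand): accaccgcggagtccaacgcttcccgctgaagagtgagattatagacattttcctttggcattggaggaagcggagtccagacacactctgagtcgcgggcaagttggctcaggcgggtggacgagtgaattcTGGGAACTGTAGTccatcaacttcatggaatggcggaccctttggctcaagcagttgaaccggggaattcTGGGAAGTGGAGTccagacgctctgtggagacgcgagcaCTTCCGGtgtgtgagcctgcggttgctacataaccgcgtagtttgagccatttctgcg
ZNF850 (GRCh38.p14, chr19:36772758-36773057, minus strand): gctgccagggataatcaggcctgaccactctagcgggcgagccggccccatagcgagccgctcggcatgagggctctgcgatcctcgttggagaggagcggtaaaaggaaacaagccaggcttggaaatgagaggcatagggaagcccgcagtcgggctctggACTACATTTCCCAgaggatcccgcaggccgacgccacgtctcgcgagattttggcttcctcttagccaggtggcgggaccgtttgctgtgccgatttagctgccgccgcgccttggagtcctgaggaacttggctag
ZNF225 (GRCh38.p14, chr19:44113149-44113448, plus strand): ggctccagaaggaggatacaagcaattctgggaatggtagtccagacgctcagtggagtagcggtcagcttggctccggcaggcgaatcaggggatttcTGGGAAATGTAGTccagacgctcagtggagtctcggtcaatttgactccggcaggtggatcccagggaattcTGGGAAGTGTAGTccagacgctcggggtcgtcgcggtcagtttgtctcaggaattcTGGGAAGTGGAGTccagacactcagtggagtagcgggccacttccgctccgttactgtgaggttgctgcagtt
The first of these motifs is, among words of its shape, the one that most of these promoters shared, and the shape was chosen after they had been read. It stands 1 time in the ZNF222 promoter, 2 times in that of ZNF230, 1 time in that of ZNF850 and 3 times in that of ZNF225. Of the 41 genes with a promoter entry 21 (51.2%) held it, 16 of them as 1 copy, against 0.938% of 27305 promoters of the same length and 6.78% of 339 promoters of other zinc finger genes. It was in 11 of 15 promoters of 19q13.31, in 10 of 23 of 19q13.12 and in 0 of 3 of 19q13.11, while the zinc finger cluster of 19p12 had it in 0 of 24, that of 19q13.41 in 1 of 30 and that of 19q13.43 in 4 of 39. Picking the word most shared by these promoters favours a higher share here than elsewhere, so these shares are no test of a difference. The ETS core was in 39.0% of the 41 promoters, in 39.8% of those of other zinc finger genes and in 10.7% of all promoters. A match of letters describes the sequence and is not a binding site.

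The genes were expressed at low levels. Above 0.5 RPKM stood 31 of the 49 in S473A, 37 in S473D and 31 in wt, and 29 did so in all 3 libraries. The share among all 19049 genes was 66.9% in S473A, 66.5% in S473D and 67.0% in wt. Above 2 RPKM stood 6 in S473A, 15 in S473D and 7 in wt. The median level over the 49 genes was 0.670 RPKM in S473A, 1.10 in S473D and 0.828 in wt.

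ZNF302 of 19q13.11 had the highest level in all 3 libraries, at 8.35 RPKM in S473A, 11.3 in S473D and 8.44 in wt, and was the only one of the 49 above 5 RPKM. ZFP82 followed at 3.0 RPKM in S473A, 3.90 in S473D and 3.41 in wt (ratio 1.14, interval 0.952 to 1.37 for S473D over wt, where the 95% interval covers counting error alone). ZNF260, whose mouse counterpart regulates genes of cardiac muscle, stood at 2.63 RPKM in S473A, 3.23 in S473D and 2.71 in wt (ratio 1.19, interval 1.04 to 1.37). These 3 genes were each highest in S473D, by amounts that only for ZNF302 and ZNF260 exceeded counting error against wt.

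The other 3 of the 6 most abundant genes all lie in 19q13.31. ZNF45 stood at 2.78 RPKM in S473A, 3.41 in S473D and 2.28 in wt (ratio 1.5, interval 1.26 to 1.78 for S473D over wt). ZNF226 stood at 1.95 RPKM in S473A, 3.90 in S473D and 2.33 in wt, and ZNF180 at 1.92 RPKM in S473A, 3.80 in S473D and 2.15 in wt. All were highest in S473D. For ZNF226 and ZNF180 the S473A library was the lowest of the 3, while ZNF45 was lowest in wt.

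At the other end 14 genes had a mean under 0.5 RPKM over the 3 libraries: ZNF599, ZFP14, ZNF382, ZNF461, ZNF568, ZNF793, ZNF540, ZNF781, ZNF404, ZNF221, ZNF223, ZNF233, ZNF235 and ZNF285. ZNF781 and ZNF285 were listed at 0 in S473D and in wt, and ZNF382, a gene reported to be silenced by methylation in several tumours, stood at 0.0362 RPKM in S473A, 0.0444 in S473D and 0.0414 in wt. The other 35 genes, 3 of 19q13.11, 19 of 19q13.12 and 13 of 19q13.31, were above that mean and are those given differences below. Just above it were ZNF829 and ZNF585A, with means of 0.542 and 0.543 RPKM, and just below it ZNF568 and ZNF223, with 0.473 and 0.436. ZNF829, ZNF585A and ZNF230 passed only through their level in S473D, since their mean over S473A and wt was under 0.5 RPKM.

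**Figure D1:**
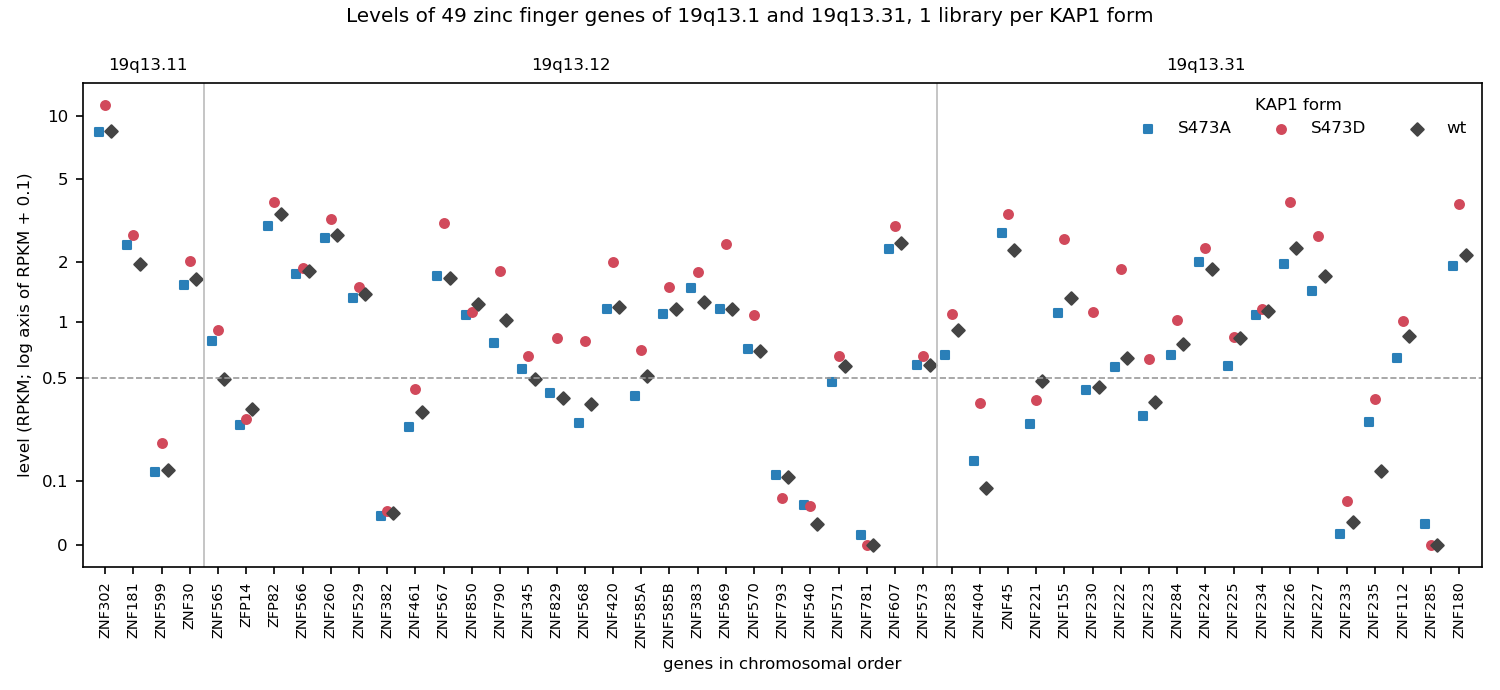
Level of each of the 49 genes in S473A (squares), S473D (circles) and wt (diamonds), 1 library each, in RPKM on a log axis of RPKM + 0.1, with genes in chromosomal order and the dashed line at 0.5 RPKM. The S473D point is the highest of the 3 for most genes, by most at ZNF222 (1.85 RPKM, against 0.644 in wt), and ZNF302 stands above all others.

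Cells with the aspartate form had higher levels of these genes than wt cells, across all 3 stretches. Without any filter on level, 16 of the 49 genes (32.7%) were at least 1.5-fold higher in S473D and 0 were at least 1.5-fold lower, on the log2(RPKM + 0.1) scale of the deposited table. Of 18571 genes, short RNAs left out, 8.19% were that much higher and 8.27% that much lower. Ratios printed with an interval leave out the added 0.1. A gene can therefore pass 1.5-fold or 2-fold by its ratio without being counted as such. In any direction, 43 of the 49 were higher, 4 lower and 2 at 0 in both. In bulk RNA more cells expressing a gene and more transcript per cell cannot be told apart.

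Among the 35 genes above a mean of 0.5 RPKM, 34 were higher in S473D and 1 lower, 12 were at least 1.5-fold higher and 3 at least 2-fold higher, and the median difference was 0.40 (quartiles 0.24 and 0.73). Of the 12484 genes with such a mean 39.0% were higher and 61.0% lower, 8.16% were at least 1.5-fold higher, 7.45% at least 1.5-fold lower and 1.51% at least 2-fold higher. The median of all these genes was -0.12. Since ZNF829, ZNF585A and ZNF230 entered only through S473D, the count was also taken with the filter on the mean of S473A and wt, a choice made after seeing the data: 10 of 32 genes were then at least 1.5-fold higher in S473D, against 7.79% of all genes under that filter, with a median of 0.37.

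The 2 highest differences among the 35 genes, those of ZNF222 and ZNF230, were at neighbouring genes of 19q13.31. ZNF230 is among the 35 only through its level in S473D, so its rank rests on the value that let it pass. ZNF222 stood at 0.578 RPKM in S473A, 1.85 in S473D and 0.644 in wt (ratio 2.87, interval 1.79 to 4.58 for S473D over wt). ZNF230, its neighbour, stood at 0.429 RPKM in S473A, 1.12 in S473D and 0.445 in wt (ratio 2.53, interval 1.79 to 3.65). ZNF155, next to ZNF230, stood at 1.11 RPKM in S473A, 2.58 in S473D and 1.33 in wt (ratio 1.94, interval 1.49 to 2.51). In each of the 3 the S473D library stood apart and S473A lay at or below wt. ZNF222, ZNF230 and ZNF155 share 4.2%, 1.21% and 3.35% of their 50-base words with another gene that has a zinc finger symbol, so reads may be split between copies. The gene that shares most words with ZNF222 and with ZNF155, AC067968.1, has no such symbol. Words shared with it alone are not counted, so these percentages can understate the sharing.

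Other genes of the same cluster differed little between S473D and wt. ZNF225, whose promoter is printed above beside those of ZNF222 and ZNF230, stood at 0.589 RPKM in S473A, 0.834 in S473D and 0.828 in wt (ratio 1.01, interval 0.747 to 1.36 for S473D over wt). ZNF234 stood at 1.09 RPKM in S473A, 1.17 in S473D and 1.14 in wt (ratio 1.02, interval 0.799 to 1.32). For these 2 genes no difference between S473D and wt was detectable at this depth. The genes that follow ZNF234 on the chromosome, ZNF226 and ZNF227, were higher in S473D: ZNF226 had a ratio of S473D to wt of 1.67, interval 1.37 to 2.04, and ZNF227 stood at 1.44 RPKM in S473A, 2.67 in S473D and 1.71 in wt (ratio 1.56, interval 1.25 to 1.96).

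At the far end of 19q13.31, ZNF180 had a ratio of S473D to wt of 1.77, interval 1.5 to 2.08, on an estimated 396 reads in S473D and 241 in wt. ZNF224, which encodes a repressor first described on the aldolase A gene, stood at 2.0 RPKM in S473A, 2.34 in S473D and 1.85 in wt (ratio 1.26, interval 1.03 to 1.54 for S473D over wt). All 13 genes of 19q13.31 above the mean of 0.5 RPKM were higher in S473D than in wt, 6 of them (46.2%) at least 1.5-fold, with a median difference of 0.56. The 6 include ZNF230, which passed the filter only through S473D.

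In 19q13.12, 18 of 19 such genes were higher in S473D and 6 (31.6%) at least 1.5-fold higher, with a median of 0.36. The 6 include ZNF829, and the 19 also ZNF585A, which both passed the filter only through S473D. ZNF569, whose product lowered MAP kinase reporter activity when overexpressed in cultured cells, stood at 1.17 RPKM in S473A, 2.45 in S473D and 1.16 in wt (ratio 2.12, interval 1.70 to 2.66 for S473D over wt). ZNF829 stood at 0.410 RPKM in S473A, 0.828 in S473D and 0.386 in wt (ratio 2.14, interval 1.5 to 3.05), and ZNF567 at 1.70 RPKM in S473A, 3.10 in S473D and 1.67 in wt (ratio 1.85, interval 1.47 to 2.33). Among the 19 genes of 19q13.12 above the mean of 0.5 RPKM these 3 had the highest differences, and their S473A and wt levels were close to each other.

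ZNF420, also called APAK, encodes a KRAB protein known to restrain p53 together with KAP1. It stood at 1.16 RPKM in S473A, 2.0 in S473D and 1.19 in wt (ratio 1.69, interval 1.32 to 2.17 for S473D over wt). ZNF790 stood at 0.781 RPKM in S473A, 1.80 in S473D and 1.03 in wt (ratio 1.75, interval 1.31 to 2.32). It is overlapped by an antisense gene, ZNF790-AS1, whose reads cannot be told apart from its own where strand was not used in counting. The last of the 6, ZNF565, stood at 0.795 RPKM in S473A, 0.906 in S473D and 0.497 in wt (ratio 1.82, interval 1.09 to 3.07) and was high in both substituted forms.

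The lowest differences of 19q13.12 were near 0. ZNF850 holds 29 fingers by the C2H2 spacing in its coding sequence, the most of the 49 genes, and was the only one of the 35 that was lower in S473D than in wt. It stood at 1.08 RPKM in S473A, 1.12 in S473D and 1.24 in wt (ratio 0.903, interval 0.748 to 1.09 for S473D over wt). ZNF566 stood at 1.74 RPKM in S473A, 1.86 in S473D and 1.81 in wt (ratio 1.03, interval 0.853 to 1.23), and ZNF529 at 1.32 RPKM in S473A, 1.51 in S473D and 1.39 in wt (ratio 1.08, interval 0.883 to 1.34). ZNF573 stood at 0.594 RPKM in S473A, 0.661 in S473D and 0.593 in wt (ratio 1.11, interval 0.674 to 1.81). For each of these 4 genes the interval included 1, so no difference was detectable at this depth. Over the 35 genes the interval lay wholly above 1 for 22 and wholly below 1 for 0. Among the 22 are ZNF829, ZNF585A and ZNF230, which passed the filter only through S473D. No such count was made over all genes, so whether this share is unusual cannot be said.

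In 19q13.11 all 3 genes above the mean were higher in S473D than in wt, and none reached 1.5-fold, where 39.0% and 8.16% of all genes did. ZNF302 had a ratio of S473D to wt of 1.34, interval 1.21 to 1.49. ZNF181 stood at 2.42 RPKM in S473A, 2.70 in S473D and 1.96 in wt (ratio 1.38, interval 1.16 to 1.62), and ZNF30 at 1.53 RPKM in S473A, 2.01 in S473D and 1.64 in wt (ratio 1.22, interval 0.945 to 1.60). The values of ZNF302 and ZNF181 are uncertain because they share sequence: 13.6% of the 50-base words of ZNF302 and 11.7% of those of ZNF181 recur in another gene with a zinc finger symbol, as do 14.1% of those of ZNF585A and 19.4% of those of ZNF585B.

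The remaining genes had smaller differences or lower levels. ZNF383, which like ZNF569 lowered MAP kinase reporters when overexpressed, stood at 1.49 RPKM in S473A, 1.78 in S473D and 1.27 in wt, ZNF570 at 0.724 RPKM in S473A, 1.09 in S473D and 0.707 in wt and ZNF607 at 2.30 RPKM in S473A, 3.0 in S473D and 2.46 in wt. ZNF585A stood at 0.396 RPKM in S473A, 0.715 in S473D and 0.517 in wt, and ZNF585B at 1.10 RPKM in S473A, 1.5 in S473D and 1.17 in wt. ZNF345 stood at 0.566 RPKM in S473A, 0.663 in S473D and 0.495 in wt, and ZNF571 at 0.479 RPKM in S473A, 0.662 in S473D and 0.584 in wt. ZNF283 stood at 0.670 RPKM in S473A, 1.10 in S473D and 0.911 in wt, ZNF284 at 0.669 RPKM in S473A, 1.03 in S473D and 0.772 in wt and ZNF112 at 0.646 RPKM in S473A, 1.01 in S473D and 0.848 in wt. S473D was the highest of the 3 libraries for each of these genes.

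**Figure D2:**
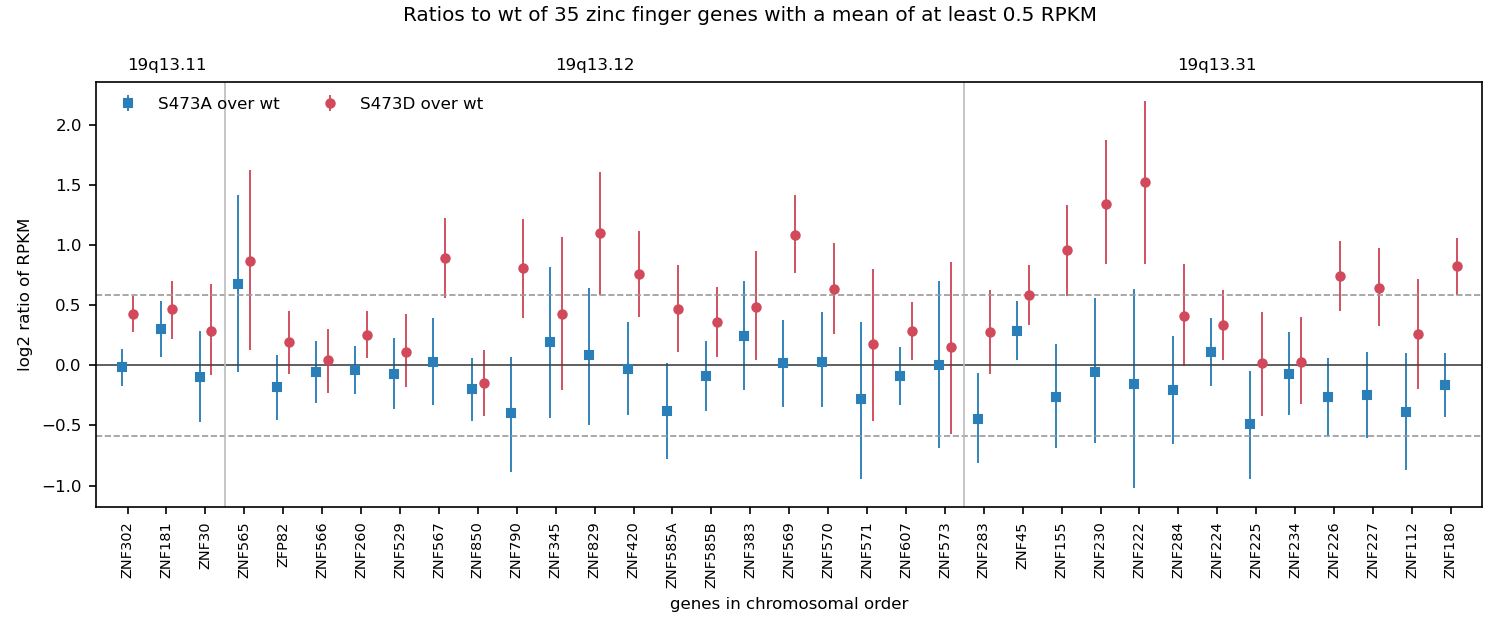
Ratio of RPKM to wt on a log2 axis for the 35 genes whose mean reached 0.5 RPKM, S473A over wt (squares) and S473D over wt (circles), in chromosomal order, with exact 95% intervals for counting error alone and dashed lines at 1.5-fold. The circles lie above 0 for 34 of 35 genes and the squares scatter around 0.

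Genes below a mean of 0.5 RPKM went both ways between S473D and wt, 9 higher, 3 lower and 2 at 0 in both. ZNF568, whose mouse counterpart represses a placental transcript of Igf2, stood at 0.273 RPKM in S473A, 0.793 in S473D and 0.354 in wt, on an estimated 72 reads in S473D and 34 in wt. ZNF404 stood at 0.147 RPKM in S473A, 0.362 in S473D and 0.0842 in wt, an estimated 16 reads in S473D and 4 in wt. ZNF223 stood at 0.302 RPKM in S473A, 0.642 in S473D and 0.363 in wt and ZNF461 at 0.256 RPKM in S473A, 0.434 in S473D and 0.316 in wt. These 4 genes were highest in S473D. ZNF235 stood at 0.276 RPKM in S473A, 0.379 in S473D and 0.122 in wt and was higher in both substituted forms than in wt. The 3 lower in S473D than in wt were ZNF793, at 0.113 RPKM in S473A, 0.0654 in S473D and 0.107 in wt, ZFP14, at 0.263 RPKM in S473A, 0.289 in S473D and 0.331 in wt, and ZNF221, at 0.269 RPKM in S473A, 0.374 in S473D and 0.482 in wt.

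Genes lying among the zinc finger genes of 19q13.12 were higher in S473D as well. Those on either side of the 3 stretches were mostly lower when pooled, but about evenly higher and lower beside 19q13.12. All 7 tested genes that lie between the zinc finger genes, each in 19q13.12, were higher in S473D than in wt, with a median of 0.55. Of the 7, 4 encode zinc finger proteins: HKR1 (4.31 RPKM in S473D, 2.91 in wt), ZNF527 (0.886 in S473D, 0.546 in wt), ZFP30 (1.64 in S473D, 1.36 in wt) and ZNF146 (34.0 in S473D, 30.9 in wt). LINC00665, a noncoding gene between them, stood at 3.49 RPKM in S473D and 1.77 in wt. Of the 20 tested genes on each side of each stretch, a list added after the data had been seen, 31 of 109 were higher in S473D and 78 lower, with a median of -0.30. Of all genes 61.0% were lower, with a median of -0.12. Beside 19q13.12 itself, 10 of 20 genes before it and 9 of 20 after it were higher, with medians of -0.04 and -0.09. With trends on length and GC content removed the median of the 109 genes was -0.20. Each of the 6 sides had a median below 0, between -0.41 after 19q13.31 and -0.04 before 19q13.12.

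Other zinc finger genes stood nearer to the median of all genes. The 20 tested genes of the 19p12 cluster had a median of 0.05 for S473D minus wt, the 29 of 19q13.41 a median of 0.11 and the 37 of 19q13.43 a median of -0.09. Of the 35 genes described here 34.3% were at least 1.5-fold higher in S473D, against 5.00% in 19p12, 3.45% in 19q13.41 and 5.41% in 19q13.43. The 35 include ZNF829, ZNF585A and ZNF230, which passed the filter only through S473D. With the filter on the mean of S473A and wt, 10 of 32 genes were that much higher. The other clusters were not counted under that filter. Over 406 tested genes with other ZNF or ZFP symbols the median was -0.07. That list, made by symbol, includes ZNF146, ZNF527, ZFP30 and the antisense gene ZNF790-AS1, which lie within 19q13.12. These are descriptions of 1 pair of libraries, and the difference between the groups of genes was not tested.

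**Figure D3:**
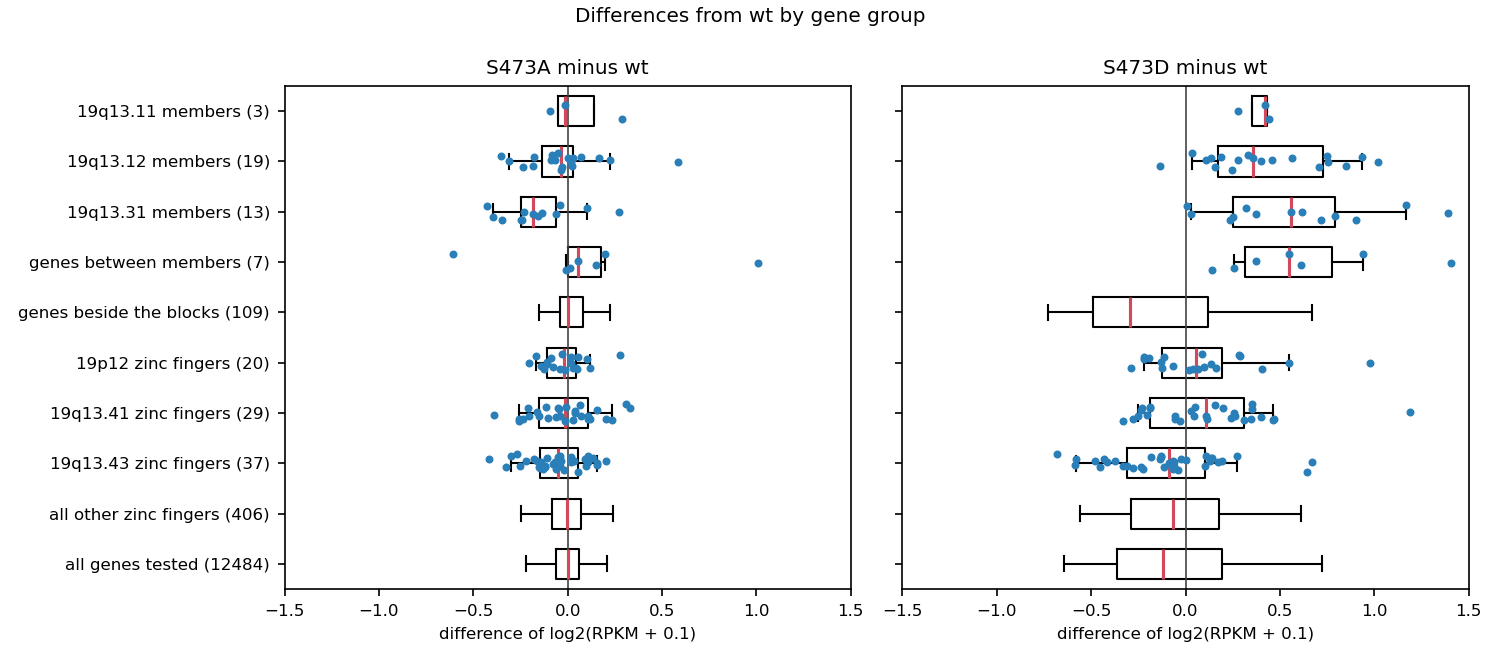
Differences of log2(RPKM + 0.1) from wt for S473A and for S473D, by gene group, with the number of genes in brackets; boxes span the quartiles, red lines mark medians, whiskers reach the 5th and 95th percentiles, and points are single genes in groups of up to 37. Medians of the 3 stretches in S473D are 0.42, 0.36 and 0.56, that of the genes beside them is -0.30 and that of all genes is -0.12.

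Differences between S473D and wt moved with transcript length over all genes, which bears on every comparison with that library. Across 11569 genes with a GENCODE transcript the correlation of the difference with log2 length was -0.41 (Pearson) and with GC content -0.23, and across the 35 genes -0.40 and 0.02, all from the same pair of libraries. The 35 genes have transcripts of 1598 to 8618 bases with a median of 3980, against 3215 for all genes tested, and a GC content of 37.0% to 46.2% with a median of 40.6%, against 48.4%. ZNF222, with the shortest transcript, had the highest difference. With smooth trends on length and GC content removed, the median difference of the 35 genes was 0.33, against -0.12 for all genes, and 31 were higher and 9 at least 1.5-fold higher (3.04% of all genes were). ZNF225 (-0.08), ZNF566 (-0.09) and ZNF573 (-0.16) were then lower in S473D than in wt, as was ZNF850 (-0.11). The difference was then 1.01 for ZNF222, 1.03 for ZNF230, 0.85 for ZNF569 and 0.86 for ZNF829. ZNF230 and ZNF829, both among the 9, passed the filter only through S473D. By stretch the median was then 0.21 in 19q13.11, 0.29 in 19q13.12 and 0.52 in 19q13.31. The 19p12 cluster then had a median of -0.22, and that of 19q13.41 a median of 0.04. The part of length and GC content in the result beyond these smooth trends was not tested.

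**Figure D4:**
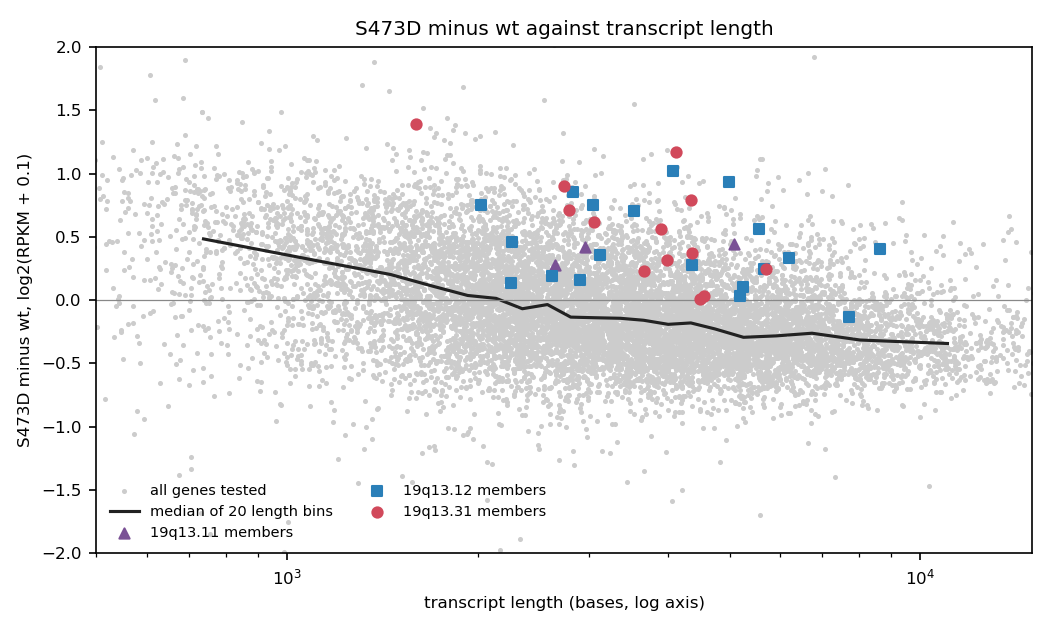
Difference between S473D and wt on log2(RPKM + 0.1) against transcript length on a log axis, for all genes tested (grey), the medians of 20 equally filled length bins (line) and the 35 zinc finger genes by stretch. The zinc finger genes lie above the line at most lengths, with ZNF850 (-0.14) close to it at the long end.

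The letters TGGGAANTGNAGT were set beside the differences, with no test. The 18 of the 35 genes whose promoter holds them had a median of 0.37 for S473D minus wt, and the 14 with a promoter entry that lacks them 0.43, while 38.9% of the 18 and 28.6% of the 14 were at least 1.5-fold higher. ZNF230 of the 18, and ZNF829 and ZNF585A of the 14, passed the filter only through S473D. For S473D minus S473A the medians were 0.57 with the letters and 0.39 without. The order of the 2 medians thus differed between the comparisons, which share the S473D library. Of the 155 other tested genes with the letters 10.3% were at least 1.5-fold higher in S473D, and of the 8961 without them 7.67%. The medians of these 155 and 8961 genes for S473D minus wt were -0.04 and -0.13. With the trends on length and GC content removed both of those medians were -0.12.

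Set against the alanine form, the aspartate form had the higher level for all 35 genes, and for 31 of them with the length and GC trends removed. This comparison and the one with wt rest on the same S473D library, so they are not independent. Of the 35 genes 13 were at least 1.5-fold higher in S473D than in S473A and 5 at least 2-fold higher, where 8.26% and 1.59% of all genes tested were. None of the 35 was at least 1.5-fold lower or lower at all, where 7.35% and 60.8% of all genes were, and 39.2% were higher. The 35 genes had a median of 0.44, where all genes had -0.12. With the trends removed the median was 0.37 and 11 genes were at least 1.5-fold higher (3.03% of all genes). ZNF565 (-0.03), ZNF566 (-0.03), ZNF345 (-0.02) and ZNF573 (-0.16) were then lower in S473D than in S473A. The 11 include ZNF829, ZNF585A and ZNF230, which passed the filter only through S473D. With the filter on the mean of S473A and wt, 10 of 32 genes were at least 1.5-fold higher in S473D, against 7.93% of all genes under that filter, with a median of 0.41. Without a filter 17 of the 49 were at least 1.5-fold higher and 0 lower, where 8.15% of all genes were higher and 8.07% lower by that much.

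Among the 35 genes, the 3 furthest apart between S473D and S473A were neighbours in 19q13.31. ZNF222 had a ratio of S473D to S473A of 3.20, interval 2.05 to 5.23. ZNF230 had a ratio of S473D to S473A of 2.62, interval 1.87 to 3.72, and ZNF155 a ratio of S473D to S473A of 2.32, interval 1.77 to 3.01. ZNF790 of 19q13.12 came next, with a ratio of S473D to S473A of 2.30, interval 1.71 to 3.12, and it was lower in S473A than in wt. The lowest ratios were those of ZNF850 (ratio 1.04, interval 0.859 to 1.25), ZNF566 (ratio 1.06, interval 0.891 to 1.28), ZNF234 (ratio 1.07, interval 0.842 to 1.37) and ZNF573 (ratio 1.11, interval 0.684 to 1.78), each with an interval that includes 1. The interval lay wholly above 1 for 24 of the 35 genes. Among the 24 are ZNF829, ZNF585A and ZNF230, which passed the filter only through S473D. The share of all genes with such an interval was not counted.

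As a group these genes differed less between the alanine form and wt than between the aspartate form and wt, as did all genes. With 0.1 added to each RPKM, 0 of the 35 genes were at least 1.5-fold higher or lower in S473A. Of all genes 0.489% were higher and 0.657% lower by that much. ZNF565 fell just short, with a difference of 0.58, although its ratio without the added 0.1 was 1.60. Without a filter 1 of the 49 was that much higher (ZNF235) and 1 lower (ZNF221), where 2.31% of all genes were higher and 2.49% lower. The median difference of the 35 genes was -0.07, with 24 lower and 11 higher, against a median of -0.00 for all genes, of which 50.5% were lower and 49.5% higher. The quartiles were -0.21 and 0.02 for the 35 genes and -0.06 and 0.06 for all genes, a wider spread for the 35. The median level in wt was 1.19 RPKM for the 35 genes and 8.92 for all genes tested. The spread was not compared with that of genes of like level, and the part of counting error in it was not tested. The genes of 19q13.31 lay lowest, 11 of 13 below wt with a median of -0.18, while those of 19q13.12 had a median of -0.04 and those of 19q13.11 of -0.02.

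Few of the differences between S473A and wt exceeded counting error. ZNF225 had a ratio of S473A to wt of 0.712, interval 0.520 to 0.969, and ZNF283 a ratio of S473A to wt of 0.735, interval 0.569 to 0.955. ZNF181 had a ratio of S473A to wt of 1.23, interval 1.05 to 1.45, and ZNF45 a ratio of S473A to wt of 1.22, interval 1.03 to 1.45. These are the 4 of 35 genes whose interval left out 1, with 2 on each side, a count not made over all genes. The highest ratio was that of ZNF565 (ratio 1.60, interval 0.960 to 2.66), which rests on an estimated 47 reads in S473A and 26 in wt. ZNF383 was among the 4 highest (ratio 1.18, interval 0.867 to 1.62), and ZNF790 (ratio 0.760, interval 0.541 to 1.05) and ZNF112 (ratio 0.762, interval 0.547 to 1.07) among the 4 lowest, each with an interval that includes 1.

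Genes of the KAP1 silencing machinery were all within 1.5-fold of wt. Of 30 genes for KAP1 and its partners (methyltransferases, heterochromatin proteins, deacetylase complex and HUSH subunits) 24 were lower in S473D than in wt and 6 higher, with a median of -0.25 and 0 at least 1.5-fold apart, where 61.0% of all genes were lower with a median of -0.12. In S473A 11 were lower and 19 higher than in wt, with a median of 0.01. The median of the 30 genes in S473D against wt was -0.17 with the trends on length and GC content removed, against -0.12 for all genes.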

How the data were processed

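RNA-seq of 3 libraries was analysed, 1 for each form of KAP1, placed by their titles. Per the submitters' processing notes, Bowtie and Partek were used with build hg19, while their versions, the annotation, the counting rule and any use of strand were not given in the sources used here. Values were deposited on a log2 scale, as RPKM plus 0.1, since the lowest is -3.32. Of 19076 rows 27 were left out (symbols turned into dates, or repeated), as were 246 short RNAs above the filter. RPKM was recovered by undoing the log, and the 12484 genes whose mean reached 0.5 RPKM were compared on log2(RPKM + 0.1), called at 1.5-fold. Each substituted form was compared with wt, and S473D with S473A. The table gives no read counts. Depth was estimated from low values: 1 read in S473A was worth 0.875 times, and in S473D 1.074 times, its worth in wt. Counting intervals (Clopper-Pearson, 95%) use these estimates with GENCODE 29 transcript lengths, and cover counting error only. Trends on length and GC content were removed by lowess (statsmodels 0.14.6, fraction 0.2, 2 rounds) for 11569 genes. Fingers were counted by the C2H2 spacing in translated coding sequence. Gene order and promoters came from RefSeq (GRCh38.p14, not the build of the table). The calculation was tested on simulated data with known changes. Named genes are the 6 of highest mean level, the 6 highest and 6 lowest in S473D minus wt, and the 4 highest and 4 lowest in each other comparison; others were named for their position, role or level after their values were seen. The members, lists and tests were chosen with earlier results of these data known. Alternatives were pseudocounts of 0.5 and 1, other filters, centring, trimmed-mean scaling, trend removal and a 2-fold call.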

Additional observations from a re-analysis of the deposited data

How the results depend on the processing

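No paired analysis was possible because each group holds 1 library. The median over the genes stayed above 0 in S473D, against wt and against S473A, under every alternative run, but single genes did not all do so: with the length and GC trends removed 31 of 35 were higher in each comparison. The count of genes at least 1.5-fold higher in S473D than in wt, 12, was 5 with a pseudocount of 1 (6.46% of all genes) and 3 at a 2-fold call (1.51%). Against S473A the count of 13 was 8 (6.54%) and 5 (1.59%). The median of 0.40 against wt was 0.27 and 0.23 with pseudocounts of 0.5 and 1, 0.52 when centred on all genes and 0.50 with trimmed-mean scaling; against S473A the median of 0.44 was 0.33, 0.28, 0.56 and 0.54 in that order. A larger pseudocount shrinks differences of low genes by construction, and centring and scaling undo a shift of -0.12 over all genes. Between S473A and wt, 1 gene was at least 1.5-fold higher and 1 lower with no filter (ZNF235 and ZNF221), and 1 was higher with the trends removed (ZNF565). The 75 alternative values for counts and medians other than these stayed within 1.5-fold for a count or 0.1 for a median. Depth limits genes with few estimated reads, ZNF222 (27 in S473A and 27 in wt) and ZNF230 (52 in S473A and 47 in wt) among them, as well as ZNF565, ZNF573 and ZNF571.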

Other observations

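The promoters of these genes also differed in another motif. The letters GGGCGGG, the core bound by SP1-family factors, stood on either strand in 7 of the 41 promoters (17.1%), against 49.6% of the promoters of 339 other zinc finger genes and 32.9% of all 27305. By the pattern of C2H2 spacing the 49 genes encode between 3 (ZNF781) and 29 (ZNF850) fingers, with a median of 13. ZNF222 and ZNF230, with the highest differences between S473D and wt among the genes above a mean of 0.5 RPKM, have 8 and 7. The antisense gene ZNF790-AS1 stood at 0.686 RPKM in S473A, 0.937 in S473D and 0.291 in wt, so it was higher than wt with both substitutions, unlike ZNF790, which was at 0.781 RPKM in S473A, 1.80 in S473D and 1.03 in wt. Which strand these reads came from was not tested.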
